A study of Homo sapiens with 15 samples.

Results

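The genes described here build and control the machinery that separates chromosomes in mitosis. They are 46 genes of the kinetochore, the spindle checkpoint, the chromosomal passenger complex, sister chromatid cohesion and separation, the mitotic kinases and cyclins, the spindle and cytokinesis, and condensin with topoisomerase II. They were picked by gene symbol, from a list drawn up with earlier results of these data known, out of the 62703 genes counted in HEK293T cells and the 35595 counted in HuCCT1 cells. The series asked what loss of SNRPD2 or PUS7 does to gene expression: the product of SNRPD2, SMD2, is a core Sm protein of the spliceosome's small nuclear ribonucleoproteins, and PUS7 is a pseudouridine synthase that modifies uridines in RNA. Total RNA was depleted of ribosomal RNA, and strand-specific libraries were sequenced. HEK293T, an embryonic kidney line that carries a viral large T antigen, was grown in DMEM and gave 3 libraries labelled SNRPD2KO, 3 labelled PUS7KO and 3 labelled Ctrl. HuCCT1, a cholangiocarcinoma line, was grown in RPMI-1640 and gave 3 libraries labelled SNRPD2KO and 3 labelled Ctrl. The knockouts were made with CRISPR-Cas9. The sources used here name no guide, no clone and no control construct.

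The kinetochore is the protein assembly on centromeric chromatin that binds spindle microtubules. Its inner part rests on nucleosomes that hold the histone variant CENPA, its outer part grips microtubules, and its fibrous corona captures them early in mitosis. Unattached kinetochores signal through BUB and MAD proteins to hold back CDC20 until each chromosome is attached. AURKB with INCENP, BIRC5 and CDCA8 corrects wrong attachments, shugoshins protect centromeric cohesin, and separase cuts it at anaphase. Most of these genes peak in G2 and M phase, and both lines are dividing lines in which they are normally expressed. In RNA from a whole culture, fewer cells in G2 and M phase and less RNA per cell cannot be told apart.

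Library totals ran from 7944276 to 11270267 counts in HEK293T and from 13776166 to 16795618 in HuCCT1. In HEK293T they were 7944276 to 9202622 in Ctrl libraries and 10022912 to 11270267 in knockout libraries. Total counts and knockout labels therefore cannot be told apart there. A floor of 3 counts was 0.25 to 0.343 and 0.172 to 0.224 CPM in the 2 lines, the unit in which a gene's count is scaled to the total of its library. SNRPD2 RNA went against its label. It averaged 280 ± 31.9 CPM in HEK293T libraries labelled SNRPD2KO, against 182 ± 13.6 CPM in Ctrl libraries, and 288 ± 29.4 CPM in HuCCT1 libraries labelled SNRPD2KO, against 155 ± 7.30 CPM in Ctrl libraries (SD, n = 3 each). The edgeR log2 differences were 0.62 (SE 0.10, adjusted p = 4.9e-05) and 0.90 (SE 0.07, adjusted p = 1.8e-06). In PUS7KO libraries SNRPD2 averaged 261 ± 22.6 CPM, also higher than in Ctrl (0.52, SE 0.10, adjusted p = 0.00034), and the difference of SNRPD2KO from PUS7KO was 0.11 (SE 0.10, adjusted p = 0.56). Every direction below for SNRPD2KO therefore refers to libraries carrying that label. PUS7 averaged 16.04 ± 2.24 CPM in PUS7KO libraries, against 26.5 ± 0.510 CPM in Ctrl libraries, a log2 difference of -0.72 (SE 0.11, adjusted p = 6.7e-05). Of 6 bile duct markers, all 6 reached 1 CPM in HuCCT1 and summed to 11630 to 12580 CPM in SNRPD2KO and 11900 to 12110 CPM in Ctrl libraries. In HEK293T 4 of the 6 did, with KRT7 and KRT19 at or near 0. Of 6 markers listed for HEK293T, 5 reached 1 CPM there and PAX2 did not, with sums of 224 to 259 CPM in Ctrl libraries. In HuCCT1 5 of them were counted and only CDH2 reached 1 CPM, with sums of 168 to 173 CPM in Ctrl libraries. CDH2 averaged 171 CPM in HuCCT1 Ctrl and 94.3 CPM in HEK293T Ctrl libraries, so this list separated the lines less clearly. The labels do not say that replicates were separate cultures, so p-values measure the spread between these libraries, which may be technical.

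Promoters of G2 and M phase genes are known for a short element, the cell cycle genes homology region (CHR), which often has the letters TTTGAA, and for CCAAT boxes bound by NF-Y. RefSeq promoter windows of 300 bases, from 250 before to 50 after the gene start (GRCh38.p14), were matched for 39 of the 46 genes. TTTGAA stood on either strand in 26 of them (66.7%), against 18.2% of all 27305 genes with a promoter window. In the 150 bases nearest the start the shares were 56.4% and 8.8%. CCAAT stood on either strand in 30 (76.9%), against 39.7%, and the forkhead letters TGTTTAC in 1 (2.6%), against 4.2%. The letters of these 3 motifs were searched independently, and a gene counted once if any of its windows matched. The promoters below, from 120 bases before to 25 after the start, are shown as examples of members with the motif near the start. Capitals mark TTTGAA or its reverse complement TTCAAA. The stretch of the kinase gene PLK1 is chr16:23678769-23678913 on the plus strand, that of the cyclin gene CCNB2 chr15:59105026-59105170 plus, and those of the condensin genes are NCAPG at chr4:17810859-17811003 plus and SMC4 at chr3:160399530-160399674 plus.
PLK1: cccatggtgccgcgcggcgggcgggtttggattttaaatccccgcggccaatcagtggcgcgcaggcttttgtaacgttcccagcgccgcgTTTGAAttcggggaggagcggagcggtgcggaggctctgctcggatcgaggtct
CCNB2: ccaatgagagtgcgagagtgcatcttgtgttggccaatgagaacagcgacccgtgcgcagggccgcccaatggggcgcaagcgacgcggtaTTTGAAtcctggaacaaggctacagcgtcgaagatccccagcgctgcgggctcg
NCAPG: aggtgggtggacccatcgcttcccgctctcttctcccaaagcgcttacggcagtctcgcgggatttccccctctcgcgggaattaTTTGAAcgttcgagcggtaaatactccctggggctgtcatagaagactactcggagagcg
SMC4: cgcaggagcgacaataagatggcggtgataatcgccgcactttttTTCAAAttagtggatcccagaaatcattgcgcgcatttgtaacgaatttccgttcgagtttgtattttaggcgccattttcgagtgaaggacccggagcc
In HEK293T SNRPD2KO against Ctrl the median log2 difference was -0.13 over 24 tested genes with TTTGAA and -0.18 over 13 without. In PUS7KO against Ctrl it was -0.24 and -0.09 over the same genes, and in HuCCT1 it was 0.55 over 25 and 0.48 over 13.

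The genes differ more in base composition. Median GC content of the longest annotated transcript was 41.9% over the 44 members tested in HEK293T, against 48.3% over all genes tested. The coding windows below show the extremes among the genes whose RNA differed most in HEK293T. They are 30 codons from the middle of each coding sequence in the GENCODE 29 annotation, read 5′ to 3′ on the coding strand, with G and C in capitals. SGO2, which recruits a phosphatase that protects cohesin, lies at chr2:200510008-200584096 (hg38) on the plus strand, and CENPE, a kinesin motor of the corona, at chr4:103105349-103198445 on the minus strand. CENPM, of the inner kinetochore, lies at chr22:41938737-41947152 minus, and SPC24, a subunit of the NDC80 complex, at chr19:11131520-11155807 minus.
SGO2: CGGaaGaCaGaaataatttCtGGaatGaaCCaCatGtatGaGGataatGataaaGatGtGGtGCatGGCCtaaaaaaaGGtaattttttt
CENPE: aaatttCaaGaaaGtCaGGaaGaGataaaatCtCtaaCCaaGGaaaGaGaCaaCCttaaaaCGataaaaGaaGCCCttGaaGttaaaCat
CENPM: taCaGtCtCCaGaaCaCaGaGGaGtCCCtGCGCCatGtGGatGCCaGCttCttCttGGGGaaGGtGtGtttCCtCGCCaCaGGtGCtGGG
SPC24: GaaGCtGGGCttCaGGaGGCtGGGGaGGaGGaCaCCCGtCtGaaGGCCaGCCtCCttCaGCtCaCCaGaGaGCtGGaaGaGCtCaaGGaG
Whole coding sequences held 34.5% G and C in SGO2, 35.3% in CENPE, 60.7% in CENPM and 61.6% in SPC24. At the third position of codons the gap was wider, at 30.4%, 31.7%, 80.0% and 79.2% in the same order.

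The members spanned a wide range of levels in Ctrl cells. Per kilobase of the longest transcript, BIRC5 was highest in HEK293T Ctrl libraries at 147 ± 9.22 CPM per kb (SD, n = 3), then PTTG1 at 112.7 ± 11.4, CCNB1 at 97.2 ± 2.71 and TOP2A at 70.3 ± 4.95. BIRC5 lay above PTTG1 (securin, the inhibitor of separase) by more than their SDs, while PTTG1 and CCNB1 (cyclin B1, the activator of CDK1) lay apart by little more than the SD of PTTG1. In HuCCT1 Ctrl libraries CCNB1 led at 288.8 ± 10.9 CPM per kb, followed by PTTG1 at 254.9 ± 12.9, CDC20 at 203 ± 8.32 and TPX2 at 188 ± 5.96, and CDC20 and TPX2 lay about the sum of their SDs apart. The lower end held CENPE at 6.69, KNL1 at 4.52, SGO2 at 4.499, ESPL1 at 3.72 and PRC1 at 1.16 CPM per kb in HEK293T. In HuCCT1 it held SGO2 at 1.69, KNL1 at 1.61, CENPE at 0.950 and PRC1 at 0.439. Lower still were SPC25 in both lines and CENPN in HEK293T alone. CENPN had 0 to 0.643 CPM in HEK293T libraries but 32.9 to 36.3 CPM in HuCCT1 libraries, and the 5 annotated genes that overlap it had 0 counts in HEK293T. SPC25 stayed at or below 1.07 CPM in all 15 libraries and PRC1, overlapped on its own strand by another annotated gene, at 1.55 to 8.58 CPM. Of the 46 genes 24 overlap another annotated gene, 10 of them on the same strand, and since the strand setting of the counting is not given, reads of overlapping genes cannot be told apart. With CENPN and SPC25 below the count filter in HEK293T, 44 members were tested there. In HuCCT1 45 were tested, with SPC25 left out.

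Mitotic genes moved in both directions in HEK293T libraries labelled SNRPD2KO. Of 44 members, 16 fell and 8 rose against Ctrl (edgeR quasi-likelihood test, Benjamini-Hochberg adjusted p under 0.05), which is 36.4% and 18.2%. Over all 15882 genes tested, 26.4% fell and 26.9% rose, 53.3% in sum. The corona, the checkpoint and the cytokinesis genes held only falls among their calls, while small outer and inner kinetochore subunits held the largest rises. The median log2 difference over the 44 was -0.13, against 0.02 over all genes. In 18 members every SNRPD2KO library lay below every Ctrl library and in 8 every one lay above, which is true of 29.4% and 30.1% of all genes.

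Both corona genes fell. CENPE had 12.6, 13.75 and 20.9 CPM in libraries labelled SNRPD2KO, against 54.5, 53.3 and 65.01 CPM in Ctrl libraries. The groups lay far apart, with replicate 3 the closest to Ctrl, and the log2 difference was -1.86 (SE 0.15, adjusted p = 6.7e-08). CENPF, a large corona protein that holds dynein at the kinetochore, had 43.8, 46.4 and 68.4 CPM against 130.4, 122 and 145 CPM in Ctrl libraries. Its log2 difference was -1.32 (SE 0.15, adjusted p = 1.6e-06), and replicate 3 was again the highest of the libraries labelled SNRPD2KO. The shugoshins fell with them. SGO2 had 3.75, 4.62 and 6.14 CPM, against 17.5, 16.7 and 22.7 CPM in Ctrl libraries, with no overlap and a log2 difference of -1.95 (SE 0.21, adjusted p = 1e-06). SGO1 had 12.98, 12.2 and 12.1 CPM, against 24.4, 26.5 and 24.9 CPM in Ctrl libraries, a difference of -1.02 (SE 0.15, adjusted p = 2e-05). Of the other separation genes, ESPL1 (separase) rose to 34.8, 29.5 and 37.1 CPM, against 21.6, 24.7 and 27.5 CPM in Ctrl libraries (0.46, SE 0.13, adjusted p = 0.007). PTTG1 did not pass the threshold at 0.06.

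At the inner and outer kinetochore the subunits of 1 complex did not move together. SPC24 had 81.5, 84.9 and 68.9 CPM in libraries labelled SNRPD2KO, against 29.5, 24.1 and 27.5 CPM in Ctrl libraries, a log2 difference of 1.53 (SE 0.10, adjusted p = 8.9e-09). Its partners in the NDC80 complex differed, with NUF2 lower at -0.38 (SE 0.10, adjusted p = 0.0049) and NDC80 itself at -0.22, short of the threshold. ZWINT, which links the KNL1 scaffold to the corona, had 155.5, 138.5 and 133 CPM against 79.8, 77.0 and 82.2 CPM in Ctrl libraries, a rise of 0.84 (SE 0.08, adjusted p = 5.1e-07). KNL1 fell by 0.47 on the log2 scale (SE 0.14, adjusted p = 0.011). CENPM had 51.4, 56.5 and 48.9 CPM, against 22.4, 22.6 and 18.0 CPM in Ctrl libraries, a difference of 1.31 (SE 0.11, adjusted p = 7e-08). CENPK, also of the inner kinetochore, fell by 0.89 (SE 0.13, adjusted p = 2.2e-05), while CENPA at -0.12, CENPI at 0.11 and CENPU at -0.29 stayed short of the threshold.

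Among checkpoint genes 3 of 5 fell and none rose. They were TTK (MPS1, the kinase that starts checkpoint signalling) at -1.0 (SE 0.10, adjusted p = 5.1e-07), MAD2L1 (MAD2) at -0.42 and the kinase BUB1 at -0.33. BUB1B and BUB3 had differences of -0.17 and -0.09. In the passenger complex only the kinase AURKB passed, at 92.4, 89.4 and 79.5 CPM in libraries labelled SNRPD2KO, against 63.0, 53.8 and 56.3 CPM in Ctrl libraries (0.59, SE 0.11, adjusted p = 0.00026). BIRC5, INCENP and CDCA8 lay between -0.14 and -0.08. Of 9 kinases, cyclins and activators, 6 did not pass, among them CDK1 at -0.05, CCNB1 at -0.18, PLK1 at 0.05 and CDC20 at 0.07. PLK4, the kinase of centriole duplication, was the 1 that fell, with 14.2, 14.3 and 18.3 CPM against 29.4, 40.8 and 41.9 CPM in Ctrl libraries (-1.25, SE 0.14, adjusted p = 2.4e-06). CCNB2 at 53.0, 47.4 and 48.8 CPM, against 42.2, 38.9 and 37.0 CPM in Ctrl libraries, rose by 0.34 (SE 0.09, adjusted p = 0.0052). The phosphatase gene CDC25C also rose, by 0.31.

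Among the condensin members the SMC subunits fell, and NCAPG and NCAPH did not pass. SMC4 had 35.8, 39.4 and 46.1 CPM in libraries labelled SNRPD2KO, against 101, 106 and 115.5 CPM in Ctrl libraries, a log2 difference of -1.40 (SE 0.11, adjusted p = 4e-08). Its ATPase partner SMC2 fell by 0.91 (SE 0.12, adjusted p = 1e-05), while the non-SMC subunits NCAPG and NCAPH stayed at 0.13 and 0.04. TOP2A, which untangles sister DNA, had 471, 467 and 571 CPM against 407, 432 and 375 CPM in Ctrl libraries and rose by 0.31 (SE 0.10, adjusted p = 0.012). Of the spindle and cytokinesis genes, the cytokinesis regulator ECT2 fell by 1.0 (SE 0.10, adjusted p = 4.3e-07), anillin (ANLN) by 0.89 and the spindle pole protein ASPM by 0.55. TPX2, the activator of AURKA, stayed at 0.10, and PRC1 at 0.47 with an SE of 0.24.

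**Figure D1:**
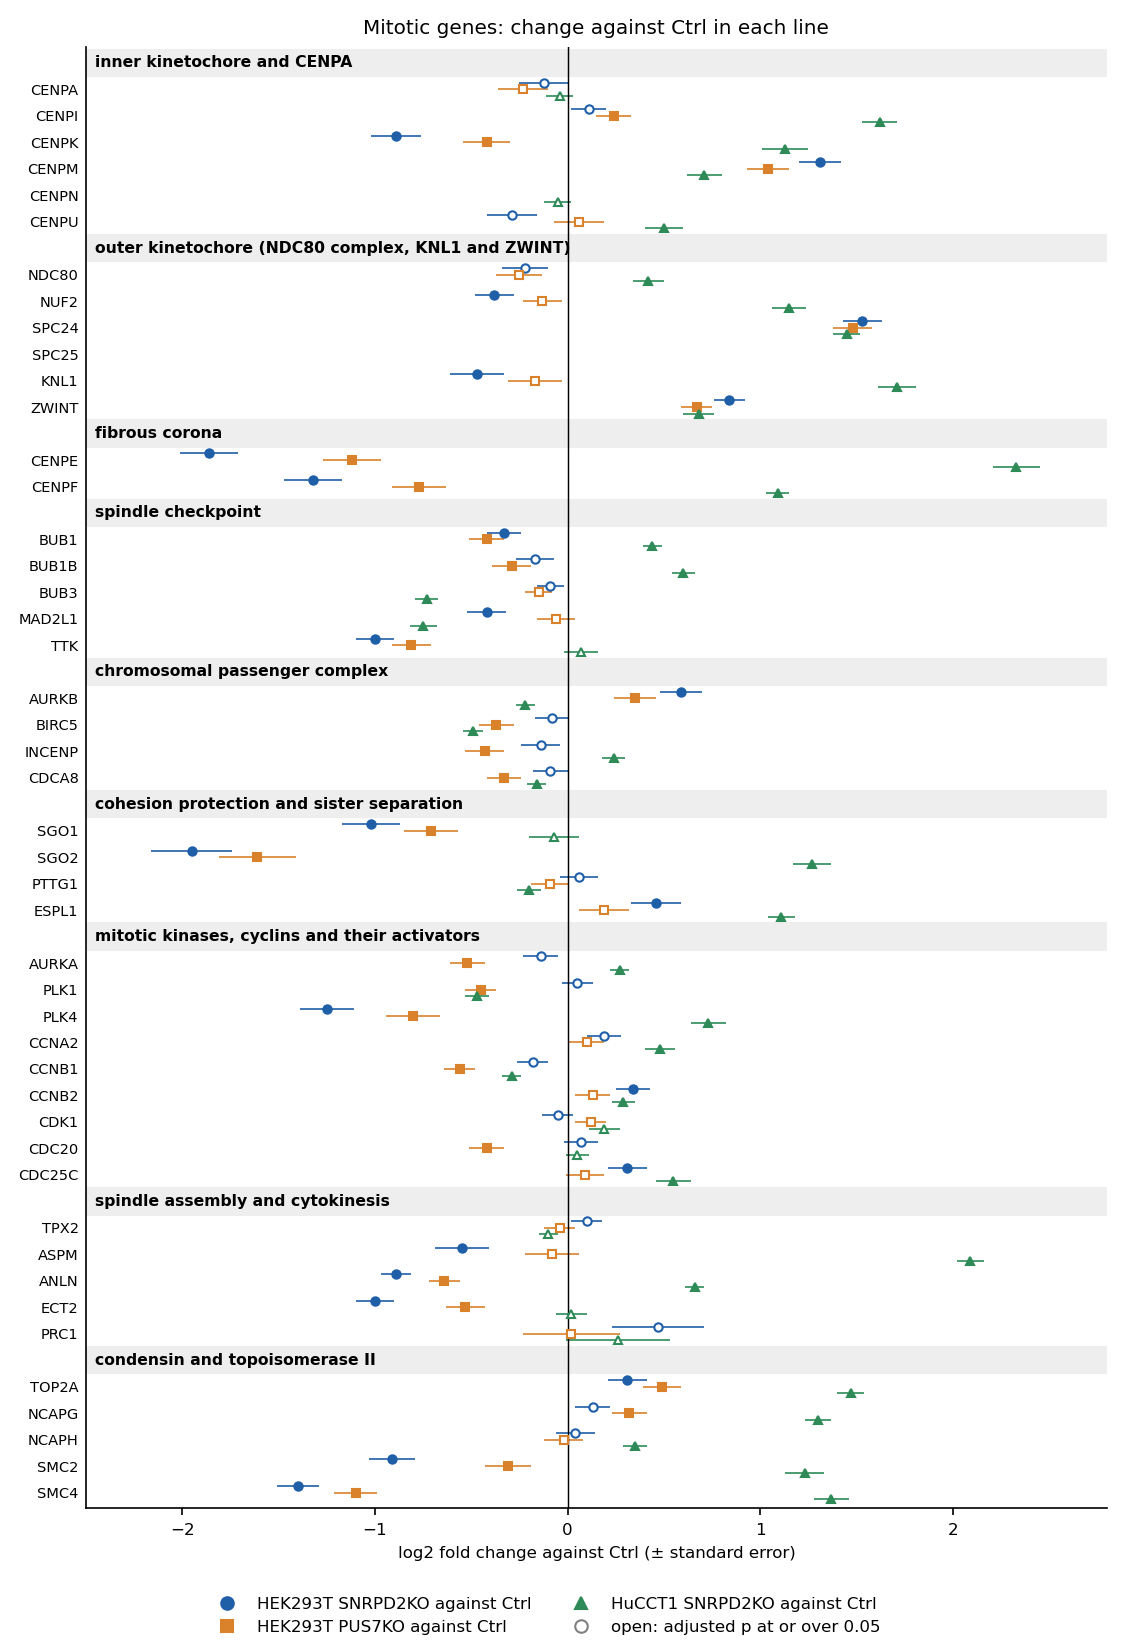
Log2 differences from Ctrl of the tested members, with standard errors, grouped by role, for HEK293T SNRPD2KO, HEK293T PUS7KO and HuCCT1 SNRPD2KO libraries (n = 3 libraries a group); filled points passed the adjusted threshold. CENPE, SGO2 and SMC4 lie at -1.86, -1.95 and -1.40 in HEK293T SNRPD2KO and at 2.33, 1.27 and 1.37 in HuCCT1, while SPC24 and CENPM lie above 0 in all 3 comparisons.

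**Figure D2:**
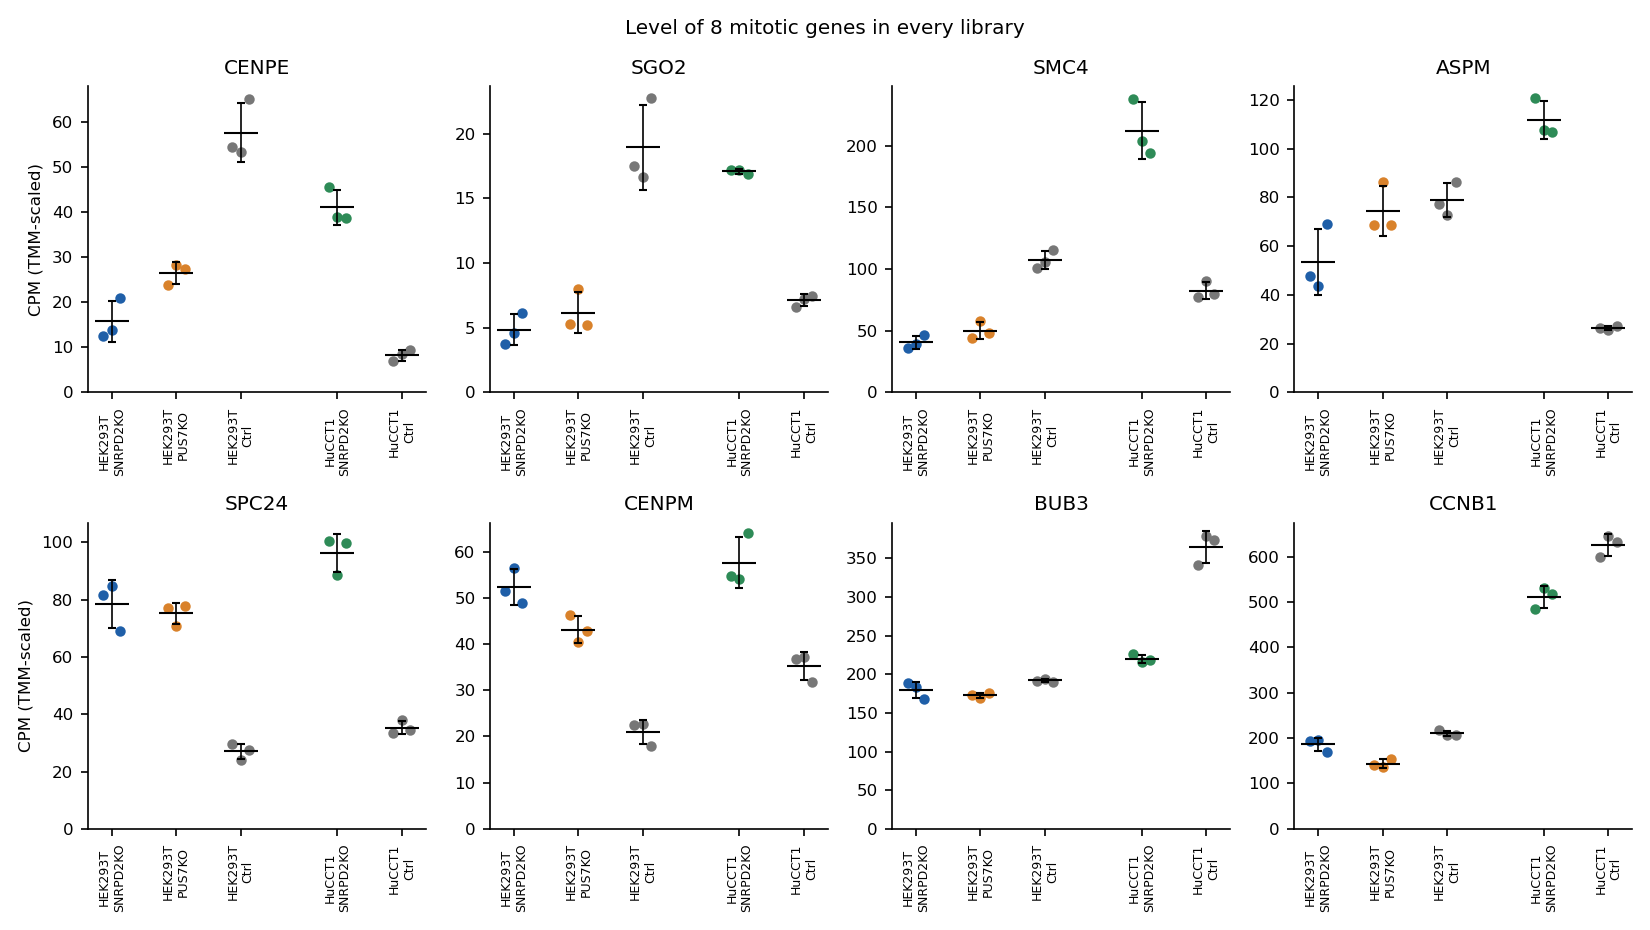
CPM in each of the 15 libraries for 8 members, by group, with the group mean as a bar and its SD (n = 3). CENPE had 12.6 to 20.9 CPM in HEK293T SNRPD2KO, against 53.3 to 65.01 in HEK293T Ctrl, and 38.6 to 45.5 in HuCCT1 SNRPD2KO, against 6.86 to 9.28 in HuCCT1 Ctrl libraries.

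The SNRPD2KO response in HEK293T varied with GC content. Across the 44 members Spearman's correlation between GC content and the log2 difference of SNRPD2KO against Ctrl was 0.68, and across all genes with a known GC content it was 0.37. These are descriptions across genes, which share libraries and are not independent replicates. Of 15 members under 40% GC, 11 fell and 1 rose, beside 56.8% and 7.1% of all genes in that class, and the medians were -0.55 and -0.51. Of 17 members over 45% GC, none fell and 6 rose, beside 16.5% and 35.3% of all genes there. The difference from other genes of the same class was not tested. GC at the third codon position gave a correlation of 0.75 across the members. Transcript length gave -0.43 across the members and -0.19 across all genes, so longer genes tended to be lower in both sets. For PUS7KO against Ctrl the correlation with GC content was weaker in value, 0.31 across members and 0.18 across all genes. Of the 17 members over 45% GC, 6 fell and 4 rose, beside 19.8% and 30.4% of all genes there.

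**Figure D3:**
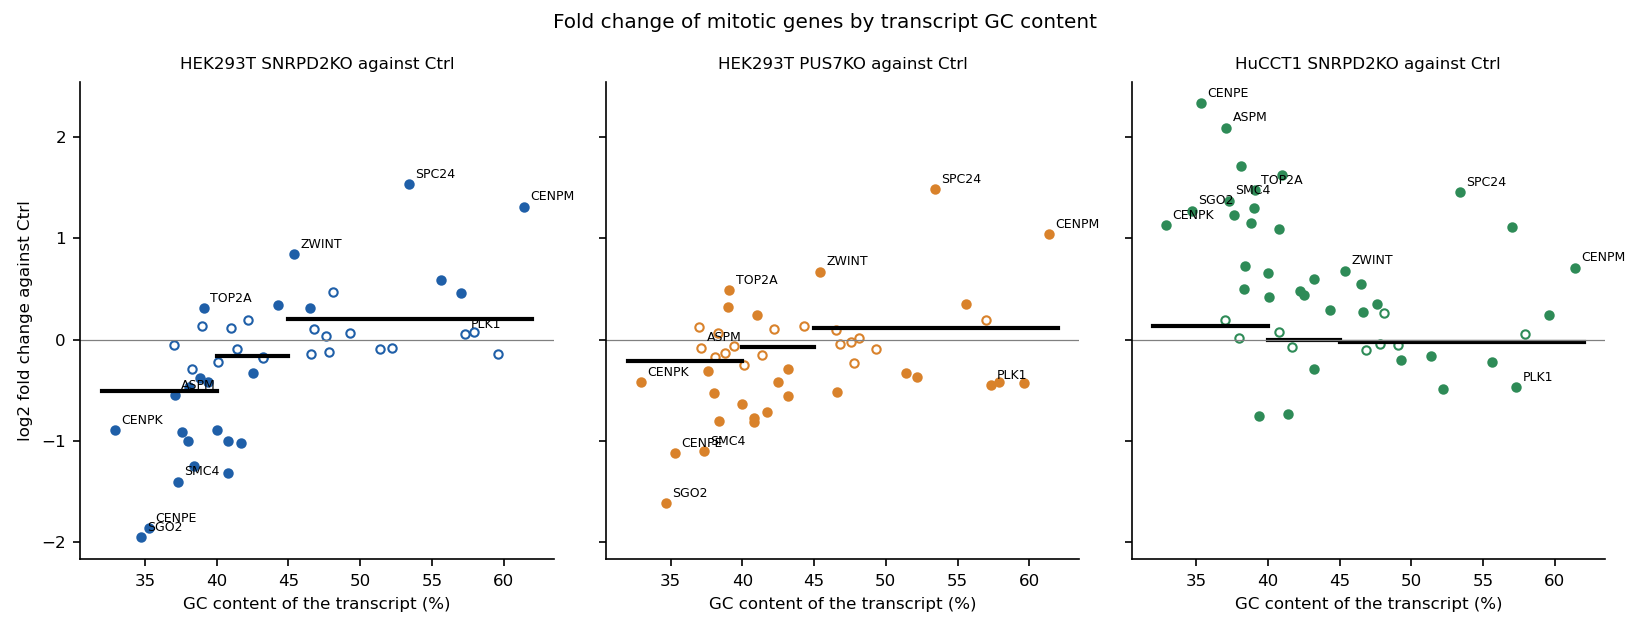
Log2 difference from Ctrl (vertical axis) against GC content of the longest transcript in percent (horizontal axis) for each tested member in 3 comparisons; filled points passed the threshold and black bars are the medians of all tested genes under 40%, from 40 to 45% and over 45% GC. In HEK293T SNRPD2KO the bars lie at -0.51, -0.16 and 0.20 and the members' median under 40% at -0.55, whereas in HuCCT1 the bar under 40% lies at 0.13 and the members' median at 1.23.

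With a trend of counts on GC content removed within each library, 11 members fell and 11 rose in HEK293T SNRPD2KO, beside 23.1% and 27.7% of all genes, and the median was -0.02. Of the 16 falls, 10 were kept. The 6 that no longer passed were CENPK (-0.03), NUF2 (0.04), KNL1 (-0.01), BUB1 (-0.14), MAD2L1 (-0.03) and ASPM (-0.01), and INCENP was added at -0.40. The largest falls became smaller and still passed: CENPE was at -1.19 (adjusted p = 3.4e-07), SGO2 at -1.24 (adjusted p = 1.6e-05), SMC4 at -0.87 (adjusted p = 1.6e-07) and PLK4 at -0.80 (adjusted p = 3.5e-05). ANLN was at -0.55, ECT2 at -0.53 and SMC2 at -0.40. Of the 8 rises 7 were kept, SPC24 at 1.42 and CENPM at 1.02 among them, and ESPL1 no longer passed at 0.26. TOP2A was larger at 0.72, and CENPI (0.39), CCNA2 (0.40), CDK1 (0.51) and NCAPG (0.54) now passed. A correlation of 0.26 with GC content remained across the members. What set the trend was not tested.

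In PUS7KO cells falls outnumbered rises, and AURKA, PLK1 and PLK4 were among the falls. Of the 44 members, 20 fell and 7 rose against Ctrl, which makes 45.5% and 15.9%. Of all genes, 23.8% fell and 25.6% rose, 49.4% in sum. The median was -0.20, against 0.01 over all genes. Every PUS7KO library lay below every Ctrl library in 22 members and above in 7, beside 27.7% and 29.5% of all genes. These are the same 3 Ctrl libraries as above, so the values of the 2 comparisons stand side by side here without a measure of likeness. Removing the GC trend left 18 falls and 9 rises, beside 23.8% and 26.5% of all genes, with a median of -0.10.

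Kinases and cyclins held 5 falls among 9 and no rise. AURKA fell by 0.52 on the log2 scale (SE 0.09, adjusted p = 0.00026) and CDC20, the activator of the anaphase-promoting complex, by 0.42 (SE 0.09, adjusted p = 0.001). CCNB1 had 140.3, 135.5 and 154 CPM in PUS7KO libraries, against 218, 207 and 208 CPM in Ctrl libraries, a difference of -0.56 (SE 0.08, adjusted p = 3.8e-05). PLK1 had 48.8, 43.3 and 48.3 CPM, against 63.1, 64.5 and 63.6 CPM in Ctrl libraries (-0.45, SE 0.08, adjusted p = 0.00029). No PUS7KO library reached the Ctrl range for either gene. PLK4 had 20.6, 23.5 and 20.1 CPM against 29.4, 40.8 and 41.9 CPM in Ctrl libraries and fell by 0.80 (SE 0.14, adjusted p = 0.00019). In the passenger complex BIRC5 (survivin) had 318, 282 and 326 CPM, against 426, 393 and 377 CPM in Ctrl libraries (-0.37, adjusted p = 0.0027). INCENP and CDCA8 fell by 0.43 and 0.33. AURKB passed in the other direction at 0.35 (SE 0.11, adjusted p = 0.015), with 73.5, 61.9 and 85.7 CPM overlapping the Ctrl values of 63.0, 53.8 and 56.3 CPM, and missed the threshold without PUS7KO replicate 3 (0.25) or without Ctrl replicate 2 (0.31).

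The corona, shugoshin and SMC genes fell in PUS7KO libraries too. CENPE had 23.7, 28.2 and 27.4 CPM (-1.12, SE 0.15, adjusted p = 9.9e-06) and SGO2 5.25, 8.02 and 5.20 CPM (-1.61, SE 0.20, adjusted p = 6.8e-06), both well below the Ctrl values above. SMC4 had 44.4, 57.4 and 47.9 CPM and fell by 1.10 (SE 0.11, adjusted p = 5.6e-07). CENPF fell by 0.77, SGO1 by 0.71 and the checkpoint kinase TTK, at 45.5, 50.7 and 39.0 CPM against 77.0, 74.2 and 86.9 CPM in Ctrl libraries, by 0.81 (SE 0.10, adjusted p = 5.3e-06). ASPM at -0.08 and MAD2L1 at -0.06 did not pass. The rises were led by SPC24 at 77.0, 71.0 and 77.8 CPM (1.48, SE 0.10, adjusted p = 1.8e-08), CENPM at 46.2, 40.4 and 42.8 CPM (1.04, SE 0.11, adjusted p = 1.2e-06) and ZWINT at 132, 120 and 128 CPM (0.67, SE 0.08, adjusted p = 6.8e-06). TOP2A had 530.5, 636 and 539 CPM (0.49, SE 0.10, adjusted p = 0.00058) and NCAPG 92.5, 100.5 and 84.7 CPM, against 76.9, 73.2 and 72.3 CPM in Ctrl libraries (0.32, SE 0.09, adjusted p = 0.0068). With the GC trend removed, CENPK (-0.12) and SMC2 (-0.10) no longer passed, ECT2 was at -0.33 and NCAPG at 0.50.

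Set against each other, libraries labelled SNRPD2KO and PUS7KO differed in 10 of the 44 members, 4 higher and 6 lower in SNRPD2KO, beside 1.57% and 3.2% of all genes (4.77% in either direction). The 4 were all mitotic kinases or activators: AURKA at 0.38 (SE 0.09, adjusted p = 0.034), PLK1 at 0.49 (SE 0.08, adjusted p = 0.0092), CCNB1 at 0.38 (SE 0.08, adjusted p = 0.024) and CDC20 at 0.49 (SE 0.09, adjusted p = 0.013). PLK1 had 68.1, 66.4 and 63.0 CPM in libraries labelled SNRPD2KO, against 48.8, 43.3 and 48.3 CPM in PUS7KO libraries, and CCNB1 193, 195 and 169.9 CPM, against 140.3, 135.5 and 154 CPM. Neither pair of groups overlapped. CENPE at -0.73, CENPF at -0.55, CENPK at -0.47, ECT2 at -0.47, SMC2 at -0.59 and MAD2L1 at -0.35 were lower. Spearman's correlation of this difference with GC content was 0.87 across the members and 0.50 across all genes. With the GC trend removed, the 4 higher members still passed at 0.39 to 0.46 and none of the 6 lower ones did. Of all genes, 0.334% were higher and 0.309% lower after removal. A correlation of 0.61 then remained across the members, and whether the 4 depend on GC content was not tested. These calls rest on few libraries: none remained without SNRPD2KO replicate 1 or 2, 1 rise and no fall without PUS7KO replicate 2, 2 rises and 3 falls without PUS7KO replicate 1, and 5 rises and 11 falls without SNRPD2KO replicate 3.

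In HuCCT1 most mitotic genes were higher in libraries labelled SNRPD2KO. Of 45 members tested, 28 rose and 8 fell, which is 62.2% and 17.8%, beside 28.8% and 28.4% of all 15007 genes (57.2% in either direction). The median log2 difference was 0.44, against 0 over all genes. All 5 outer kinetochore genes tested, both corona genes and all 5 condensin and topoisomerase genes rose, while the falls came from the checkpoint, the passenger complex, securin and CDK1 activation. Every SNRPD2KO library lay above every Ctrl library in 28 members and below in 9, beside 31.9% and 31.6% of all genes. The summed level of all 46 genes was 6553 to 6682 CPM in libraries labelled SNRPD2KO, against 5469 to 5726 CPM in Ctrl libraries. In HEK293T the sums were 3504 to 3574 CPM in SNRPD2KO, 3400 to 3580 CPM in PUS7KO and 3749 to 3822 CPM in Ctrl libraries.

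CENPE rose most. It had 45.5, 38.8 and 38.6 CPM in HuCCT1 libraries labelled SNRPD2KO, against 6.86, 8.41 and 9.28 CPM in Ctrl libraries, a log2 difference of 2.33 (SE 0.12, adjusted p = 6.8e-08) and a 5.02-fold higher level. ASPM had 121, 108 and 107 CPM, against 26.3, 25.5 and 27.3 CPM in Ctrl libraries (2.09, SE 0.07, adjusted p = 5.1e-09). KNL1, the scaffold on which BUB proteins gather, had 52.0, 52.8 and 46.2 CPM, against 13.2, 16.9 and 15.9 CPM in Ctrl libraries (1.71, SE 0.10, adjusted p = 1.6e-07). In each of these 3 genes the lowest library labelled SNRPD2KO lay over the highest Ctrl library by more than either group's range. CENPI, of the inner kinetochore, had 43.4, 49.9 and 47.4 CPM, against 16.2, 15.7 and 13.7 CPM in Ctrl libraries (1.62, SE 0.09, adjusted p = 1.1e-07). SPC24 had 101, 88.6 and 99.8 CPM, against 33.6, 37.9 and 34.3 CPM in Ctrl libraries (1.45, SE 0.07, adjusted p = 6.7e-08). NUF2 rose by 1.15 and CENPK by 1.13, CENPM by 0.71, ZWINT by 0.68 and NDC80 by 0.42, so rises ran through both layers of the kinetochore, with CENPA at -0.04 and CENPN at -0.05 short of the threshold.

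Chromosome structure genes rose as a block. TOP2A had 504, 479.5 and 453 CPM, against 158, 174 and 186 CPM in Ctrl libraries (1.47, SE 0.07, adjusted p = 3.5e-08). SMC4 had 238, 204 and 194 CPM, against 77.0, 90.2 and 80.0 CPM in Ctrl libraries (1.37, SE 0.09, adjusted p = 2.5e-07), NCAPG rose by 1.30, SMC2 by 1.23 and NCAPH by 0.35. SGO2 had 17.2, 17.2 and 16.9 CPM, against 6.61, 7.25 and 7.48 CPM in Ctrl libraries (1.27, SE 0.10, adjusted p = 1.6e-06), while SGO1 did not pass at -0.07. CENPF rose by 1.09, with 317, 304 and 309 CPM against 136, 159.6 and 140.3 CPM in Ctrl libraries, and ESPL1 by 1.11.

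The 8 falls in HuCCT1 were BUB3, MAD2L1, BIRC5, AURKB, CDCA8, PLK1, CCNB1 and PTTG1. BUB3, which carries BUB1 and BUB1B to KNL1, had 226, 216 and 218 CPM in libraries labelled SNRPD2KO, against 341, 379.5 and 374 CPM in Ctrl libraries (-0.73, SE 0.06, adjusted p = 9.7e-07). MAD2L1 had 43.1, 47.7 and 41.5 CPM, against 73.0, 71.2 and 78.9 CPM in Ctrl libraries (-0.75, SE 0.07, adjusted p = 4.9e-06). BUB1 and BUB1B moved the other way and rose by 0.44 and 0.60, so the checkpoint list was split. BIRC5 had 248, 268.5 and 245.5 CPM, against 354, 362 and 350.2 CPM in Ctrl libraries (-0.49, SE 0.05, adjusted p = 1.5e-05). PLK1 had 207, 183 and 187 CPM, against 264, 271 and 262 CPM in Ctrl libraries (-0.47, SE 0.06, adjusted p = 4.3e-05). CCNB1 fell to 485, 532 and 517 CPM, against 600.3, 646 and 633 CPM in Ctrl libraries (-0.29, SE 0.05, adjusted p = 0.00074). AURKB fell by 0.22 (SE 0.05, adjusted p = 0.0041), with 118, 121 and 124 CPM against 144, 136 and 142 CPM in Ctrl libraries. PTTG1, with 229.5, 236 and 247 CPM against 265, 264 and 289 CPM in Ctrl libraries, fell by 0.20 and CDCA8 by 0.16. TPX2, the member of highest CPM in the spindle list, had 653.5, 622 and 624 CPM against 654, 695 and 684 CPM in Ctrl libraries, and its difference of -0.10 did not pass.

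In HuCCT1 the link with GC content ran the opposite way. Spearman's correlation was -0.50 across the 45 members and -0.02 across all genes. Of 15 members under 40% GC, 12 rose and 1 fell, beside 34.7% and 21.4% of all genes in that class, with medians of 1.23 and 0.13. Of 18 over 45% GC, 8 rose and 5 fell, beside 28.2% and 30.1% of all genes there. With the GC trend removed, all 28 rises were kept, CENPE at 2.16 and ASPM at 1.94 among them, and 6 of the 8 falls. CDCA8 (-0.07) and PTTG1 (-0.11) no longer passed. Of all genes, 27.8% rose and 29.4% fell after removal. The trend was fitted over all genes, and removing it left a correlation of -0.43 across the members. Whether the rises depend on GC content was not tested.

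**Figure D4:**
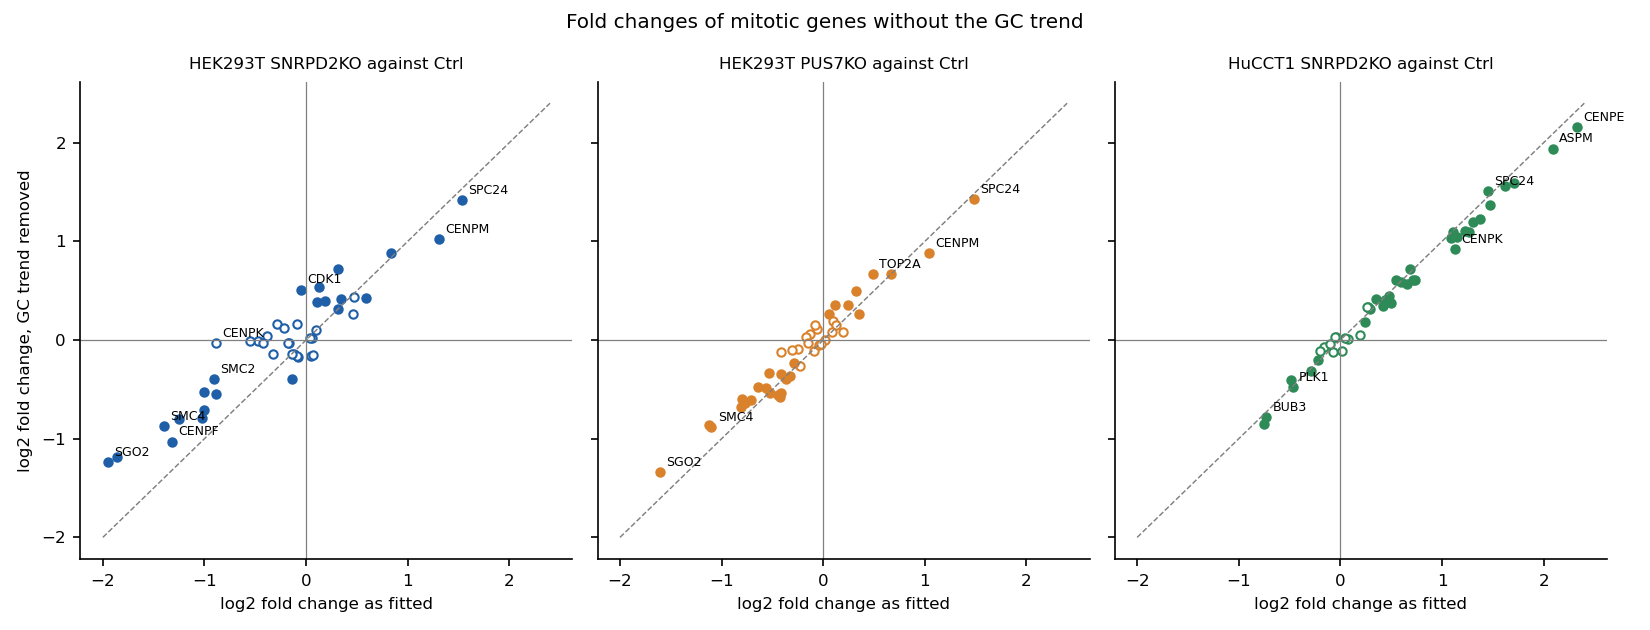
Log2 difference with the GC trend removed (vertical axis) against the value as fitted (horizontal axis) for each tested member in HEK293T SNRPD2KO, HEK293T PUS7KO and HuCCT1 SNRPD2KO against Ctrl; filled points passed after removal and the dashed line marks equal values. In HEK293T SNRPD2KO low values lie above the line, with CENPE at -1.19 against -1.86, while HuCCT1 points lie close to it.

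The response to the same label differed between the lines in most of these genes. In 1 fit over the 12 SNRPD2KO and Ctrl libraries, the difference in response, HuCCT1 minus HEK293T, passed for 31 of 45 members, 24 above and 7 below 0, which is 53.3% and 15.6%. Over all 17617 genes tested, 19.8% and 20.9% passed, 40.7% in sum. The median difference was 0.60 over the members and -0.01 over all genes. It was 0.35 to 0.5 with any 1 library left out, lowest without HEK293T Ctrl replicate 1, and 0.39 without the count filter. CENPE differed most at 4.14 (SE 0.22, adjusted p = 4.4e-10), followed by SGO2 at 3.17 (SE 0.23, adjusted p = 1.6e-08), SMC4 at 2.72 (SE 0.15, adjusted p = 4.4e-10) and ASPM at 2.59 (SE 0.18, adjusted p = 9.1e-09). Below 0 were AURKB at -0.86 (SE 0.11, adjusted p = 5.1e-06), BUB3 at -0.68 (SE 0.09, adjusted p = 1.8e-05), CENPM at -0.65 (SE 0.15, adjusted p = 0.0016) and PLK1 at -0.56 (SE 0.10, adjusted p = 0.00017).

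Of the 44 members tested in both lines, 12 fell in HEK293T and rose in HuCCT1, beside 6.49% of the 12708 genes tested in both. They were CENPK, NUF2, KNL1, CENPE, CENPF, BUB1, SGO2, PLK4, ASPM, ANLN, SMC2 and SMC4. The difference itself passed for each of the 12. They came from every role group but the passenger complex. Another 7 rose in both lines, namely CENPM, SPC24, ZWINT, ESPL1, CCNB2, CDC25C and TOP2A, beside 12.6% of all genes, and for SPC24 the difference between the lines was -0.13 (SE 0.14, adjusted p = 0.47). AURKB rose in HEK293T and fell in HuCCT1, and MAD2L1 fell in both. TTK, SGO1 and ECT2 fell in HEK293T alone by their calls, and the difference between the lines passed for all 3, at 1.03, 0.90 and 0.98. With the GC trend removed, 8 members fell in HEK293T and rose in HuCCT1, 7 of them among the 12 (CENPE, CENPF, SGO2, PLK4, ANLN, SMC2 and SMC4). The share of all genes with this pattern after removal was not counted. The difference then passed for 23 members above and 8 below 0, beside 17.4% and 21.9% of all genes. Of these members 22 and 6 had passed before, with CENPE at 3.35, SGO2 at 2.34, SMC4 at 2.09 and ASPM at 1.95. Across the members Spearman's correlation of this difference with GC content was -0.72 before removal and -0.55 after it. The lines were grown in different media and their libraries carry different depths, which cannot be told apart from the cell line.

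**Figure D5:**
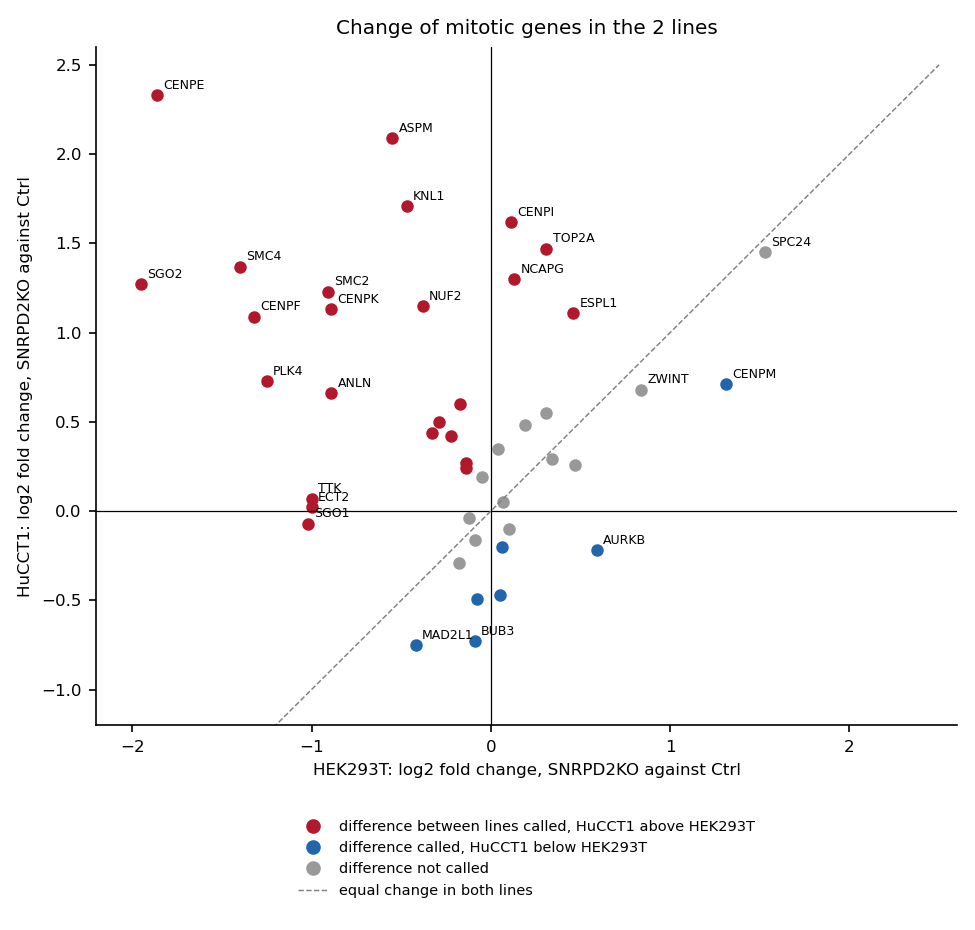
Log2 difference of SNRPD2KO from Ctrl in HuCCT1 (vertical axis) against that in HEK293T (horizontal axis) for each member tested in both lines; colour marks members whose difference between the lines passed, and the dashed line marks equal responses. SGO2, CENPE and SMC4 lie at the upper left, low in HEK293T and high in HuCCT1, and SPC24 lies near the dashed line at 1.53 and 1.45.

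Other genes of the same machinery, taken from lists written with earlier results of these data known, were counted in the same way. In HEK293T SNRPD2KO 29 of 90 fell and 27 rose (32.2% and 30%), near the 26.4% and 26.9% of all genes. In PUS7KO 30 fell and 28 rose (33.3% and 31.1%), beside 23.8% and 25.6%. In HuCCT1 51 of 91 rose and 20 fell (56.0% and 22.0%), beside 28.8% and 28.4%. Cohesin, the ring that holds sister chromatids together, has SMC subunits of its own. Of 11 cohesin genes 8 fell and 1 rose in HEK293T SNRPD2KO (median -0.69), 8 fell and 1 rose in PUS7KO (median -0.43), and 8 rose and 2 fell in HuCCT1 (median 0.49), each count of 8 being 72.7% beside the shares of all genes just given. The cohesin loader NIPBL was at -1.58 (SE 0.12, adjusted p = 3e-08), -1.14 and 0.48 in these comparisons, and SMC1A rose in all 3, at 0.67, 0.81 and 1.39. CDCA5 (sororin), which keeps cohesin closed, fell in HuCCT1 by 1.09 (SE 0.06, adjusted p = 9.7e-08). Of 13 transcription factors of G2 and M phase genes, 5 fell and 3 rose in HEK293T SNRPD2KO (38.5% and 23.1%). In PUS7KO 4 fell and 3 rose (30.8% and 23.1%), and in HuCCT1 3 fell and 7 rose (23.1% and 53.8%), beside the same shares of all genes. The largest falls in HEK293T were LIN54 at -1.23 in SNRPD2KO and LIN9 at -0.83 in PUS7KO. MYBL2 rose in each of the 3 comparisons with Ctrl (0.65, 0.56 and 0.64). FOXM1 was at 0.03 and -0.14 in HEK293T, short of the threshold, and rose by 0.22 in HuCCT1. The proliferation marker MKI67 was at -0.01 in HEK293T SNRPD2KO and 0.07 in PUS7KO, both short of the threshold, and rose by 0.86 in HuCCT1 (SE 0.06, adjusted p = 3.5e-07). PMF1, a subunit of the MIS12 complex, rose in both HEK293T comparisons by 1.11 and 1.18, and the midbody kinase CIT led the rises in HuCCT1 at 1.64 (SE 0.06, adjusted p = 1.3e-08).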

How the data were processed

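RNA sequencing measured 15 libraries from 2 lines in 5 groups of 3, taken from the sample labels. The authors deposited raw counts per gene, 1 table a line, with whole numbers and no normalization. The submitters' processing notes name cutadapt 4.2, HISAT2 2.2.1, RSEM and hg38; roles, strand setting and annotation release are not given in the sources used here. CPM are scaled by TMM factors. Each line was fitted in R 4.3.3 with edgeR 4.0.16 (TMM, filterByExpr with minimum count 10 and minimum total 15, quasi-likelihood test, two-sided, Benjamini-Hochberg adjustment over all tested genes, threshold 0.05), with all 9 HEK293T libraries in 1 fit. The difference between lines was an interaction over 12 libraries. The scripts were tested on simulated counts. The biological coefficient of variation was 10.8% in HEK293T and 10.1% in HuCCT1, and pairs of replicates differed by 3.7 to 14.8 times counting error (chi-square per degree of freedom). Floors of 3 counts cover counting error only.

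GC content and length come from the longest basic transcript in GENCODE 29, matched by gene identifier for 97%, 97.1% and 96.6% of tested genes and 100% of members. Coding sequences come from the basic transcript with the longest complete coding sequence, which can be a different transcript. The GC trend was removed as a smooth offset per library. Promoters come from RefSeq (GRCh38.p14) and were matched by symbol for 39 members.

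Members and lists were chosen with earlier results of these data known. All 46 members were counted and may be named with a log2 difference. Values per library are given for the 6 largest calls per direction in each comparison with Ctrl, for up to 4 per direction in the difference between lines and for the member of highest mean CPM in each role group; up to 3 other genes of the pathway per direction and comparison were named. FOXM1, MYBL2, MKI67 and CENPN were chosen after their values were seen. Alternatives were RLE and upper quartile factors, no filter or a stricter one, limma 3.58.1 voom, DESeq2 1.42.0, a replicate block, a threshold of 0.01, fits of only the compared groups, GC trend removal and each library left out. GC with length removal and protein-coding genes alone were added after seeing the data. Some results for other genes are not reported here.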

Additional observations from a re-analysis of the deposited data

Results flagged for a closer look

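The response to the SNRPD2KO label differed between HuCCT1 and HEK293T by the edgeR interaction test for 8 of the members described by library. The response was higher in HuCCT1 for CENPE by 4.14, SGO2 by 3.17, SMC4 by 2.72 and ASPM by 2.59 on the log2 scale. It was lower in HuCCT1 for AURKB at -0.86, BUB3 at -0.68, CENPM at -0.65 and PLK1 at -0.56. The directions of these 8 were kept with the GC trend removed, where the values were 3.35, 2.34, 2.09, 1.95, -0.71, -0.98, -0.48 and -0.40 in the same order, each past the threshold. Groups held 3 libraries, so no single library was tested as standing apart from its group.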

How the results depend on the processing

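In HEK293T SNRPD2KO against Ctrl the median of the members was -0.02 with the GC trend removed, with or without the replicate block, and -0.04 with GC and length trends removed, which called 13 members higher. In PUS7KO against Ctrl it was -0.1, -0.1 and -0.13. SNRPD2KO against PUS7KO moved most. All genes called were 1292 without a filter, 31 at an adjusted p under 0.01, 464 with the 2 groups alone, 102 with GC removed, 189 with GC and length removed and 23 with GC removed and the replicate block. Members called lower were 3 with RLE factors or the 2 groups alone and 0 at an adjusted p under 0.01 or with any GC removal; members called higher were 1 at an adjusted p under 0.01 and 0 with GC removed and the replicate block, and the median was 0.12 with each GC removal. In HuCCT1 5 members were lower with GC and length removed. The median difference between the lines was 0.39 without a filter, 0.41 with GC removed, 0.41 with GC removed and the replicate block, 0.4 with GC and length removed and 0.5 over protein-coding genes. The cause of these shifts was not tested.

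With each library left out, HEK293T SNRPD2KO gave 7749 to 8503 genes, 7 to 9 members higher, 15 to 17 lower and a median of -0.14 to -0.07 (-0.07 without SNRPD2KO replicate 3). PUS7KO gave 7027 to 7623 genes, 6 to 7 higher, 18 to 22 lower and -0.23 to -0.13 (-0.13 without PUS7KO replicate 3). SNRPD2KO against PUS7KO gave 22 to 1891 genes, 0 to 5 higher, 0 to 11 lower and 0.03 to 0.08. HuCCT1 gave 7889 to 8363 genes, 28 to 29 higher, 6 to 9 lower and 0.42 to 0.46. The difference between lines gave 6596 to 7219 genes, 23 to 25 higher, 6 to 8 lower and 0.35 to 0.5 (0.35 without HEK293T Ctrl replicate 1).

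Libraries with the same replicate number did not deviate together (correlations of -0.086 to 0.044), so the numbers pair nothing. With the replicate block the fits called 8320, 7674, 560, 8346 and 6933 genes in the order above, members higher were 8, 6, 3, 28 and 23 and lower were 16, 19, 5, 8 and 7, and the medians were -0.13, -0.2, 0.06, 0.44 and 0.6. Of 864 values of named members under an alternative, 857 kept direction and side of the threshold, 7 no longer passed and 0 reversed. Most of these values belong to members named for having the largest calls in these same data, so the count says little about the other calls. SNRPD2KO against PUS7KO, where the calls moved most, had no named members and is not in this count. The 7 concern ESPL1 in HEK293T SNRPD2KO, AURKB in PUS7KO and AURKB in HuCCT1 (-0.12 with GC and length removed).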
